A study of Mus musculus with 6 samples.

Results

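*Traj33* is a joining segment of the mouse TCR α locus, and it is the segment that the invariant α chain of MAIT cells uses. Its sequences were taken as all those whose J assignment listed TRAJ33 and no other J gene, in any of the 6 libraries. There were 62082 such sequences of 3675237 in all, or 1.69%. Of these, 38481 were productive and 23601 were unproductive. All of them carried the allele ending in 01. The rule left out no sequence, since none in the libraries listed TRAJ33 together with another J gene. The libraries held 53 *Traj* segments that were listed alone at least once.

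A TCR α chain is made by joining 1 *Trav* segment to 1 *Traj* segment, and in the thymus this happens at the DP stage. The first joins mostly use *Trav* segments near the *Traj* array and *Traj* segments at its 5′ end. Later joins on the same chromosome delete the earlier one and move outwards on both sides until the cell is positively selected or dies. MAIT cells are innate-like T cells that recognise vitamin B2 metabolites on MR1, and in mice their α chain joins *Trav1* to *Traj33*. iNKT cells, which see glycolipids on CD1d, use the *Trav11* to *Traj18* join. The forward primers were for *Trav9*, *Trav11* and *Trav19* and not for *Trav1*, so the lists could not measure the MAIT join. None of the *Traj33* sequences listed TRAV1 (0 of 62082). The values below therefore describe how *Traj33* was used by other V genes and not the MAIT chain.

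Both groups were pre-selection DP thymocytes, sorted as CD69- and CD5- cells that stain for CD4 and CD8α but not for TCRβ, and they have not received a positive selection signal. WT mice were BALB/c, and SKG mice carry a hypomorphic point mutation of *Zap70*, the kinase that transmits TCR signals. Both groups were the third generation (F3) of a cross between BALB/cJ and SKG, bred separately from the second. The mice received no treatment that the sources name for these samples, and their age, sex and number per library were not given in the sources used here. The cDNA was amplified from a primer in *Trav9*, *Trav11* or *Trav19* to one in the constant region, with 1 library for each amplicon and genotype, and each distinct sequence counts once. The libraries hold 249693 to 1587280 sequences, of which 98.4% to 99.9% listed only V genes of the target family. The lists name V and J genes only, so the labelled cell type could not be checked against its marker genes. With 1 library per group there was no replicate check. Every p below compares numbers of sequences within 1 library or between libraries, and not genotypes. Intervals of shares are 95% Wilson intervals, and those of odds ratios are 95% normal intervals on the log scale. They cover counting error only. Intervals and tests take each distinct sequence as independent, and how many separate rearrangements the sequences stem from was not tested.

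In the NCBIM37 build *Traj33* lies at chr14:54805033-54805089 on the plus strand, as a single exon of 57 bases. It was the 28th of 59 named *Traj* segments, 30.4 kb after the start of the array, whose whole length was 63.8 kb. *Traj34* ends 0.602 kb before it and *Traj32* starts 0.687 kb after it. The V genes lie on the same strand at very different distances. *Trav19* ends 339.5 kb before *Traj33*, *Trav9-4* 508.7 kb, *Trav9-2* 593.8 kb, *Trav11* 665.5 kb, *Trav9d-4* 1201 kb, *Trav9d-3* 1264 kb, *Trav9d-2* 1293 kb and *Trav11d* 1360 kb. *Trav9-3* was not matched in this annotation. Nearly every on-target sequence of the *Trav11* libraries listed *Trav11* and *Trav11d* together, so these 2 genes are described as one and written *Trav11*.

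The recombination signals of *Traj33* and its neighbours are shown because they are where the RAG recombinase cuts before a join. Each line runs from the nonamer through the spacer of 12 bases and the heptamer to the end of the segment, 5′ to 3′ on the plus strand, with nonamer and heptamer in capitals. The letters are those of the reference genome and not of the BALB/c libraries, in which 99.96% of *Traj32* sequences and 73.5% of *Traj31* sequences were assigned to the allele ending in 02 alone. The signals themselves are not part of any amplicon, so the lists say nothing of them in these mice.
Traj35: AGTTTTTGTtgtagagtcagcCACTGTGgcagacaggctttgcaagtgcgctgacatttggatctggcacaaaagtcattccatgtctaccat
Traj34: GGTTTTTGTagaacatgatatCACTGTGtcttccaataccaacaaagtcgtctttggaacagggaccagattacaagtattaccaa
Traj33: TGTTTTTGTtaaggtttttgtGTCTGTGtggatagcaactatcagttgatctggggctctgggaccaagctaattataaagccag
Traj32: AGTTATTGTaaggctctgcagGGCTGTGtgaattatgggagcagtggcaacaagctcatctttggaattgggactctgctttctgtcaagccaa
Traj31: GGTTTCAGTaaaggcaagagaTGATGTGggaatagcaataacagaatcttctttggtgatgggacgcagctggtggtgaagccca

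The *Traj33* heptamer matched 5 of the 7 letters of the consensus CACTGTG, and its nonamer matched 8 of the 9 letters of GGTTTTTGT. Letters were compared at these fixed places on the plus strand only. Of the 49 *Traj* segments whose length was the same in both reference annotations, 14 (28.6%) carried CACTGTG, 3 (6.12%) carried GGTTTTTGT, and no other segment than *Traj33* carried GTCTGTG (1 of 49, 2.04%). Of its neighbours, *Traj35* and *Traj34* had the full consensus heptamer, *Traj32* matched 5 letters and *Traj31* matched 4. *Traj33* is also unusual within its coding part. In the conserved motif in which phenylalanine is followed by glycine, any residue and glycine, *Traj33* has a tryptophan codon in place of phenylalanine. That was so at 2 of the 49 segments, *Traj33* and *Traj38*, against 35 with phenylalanine.

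Among productive sequences, *Traj33* was used most by *Trav11* in both genotypes. Its share was 3.22% (3.12 to 3.31) of *Trav11* sequences in WT and 3.86% (3.77 to 3.96) in SKG, which made it the 16th of 36 segments in WT and the 10th of 36 in SKG. Only *Trav11* exceeded 2% in either genotype.

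**Figure D1:**
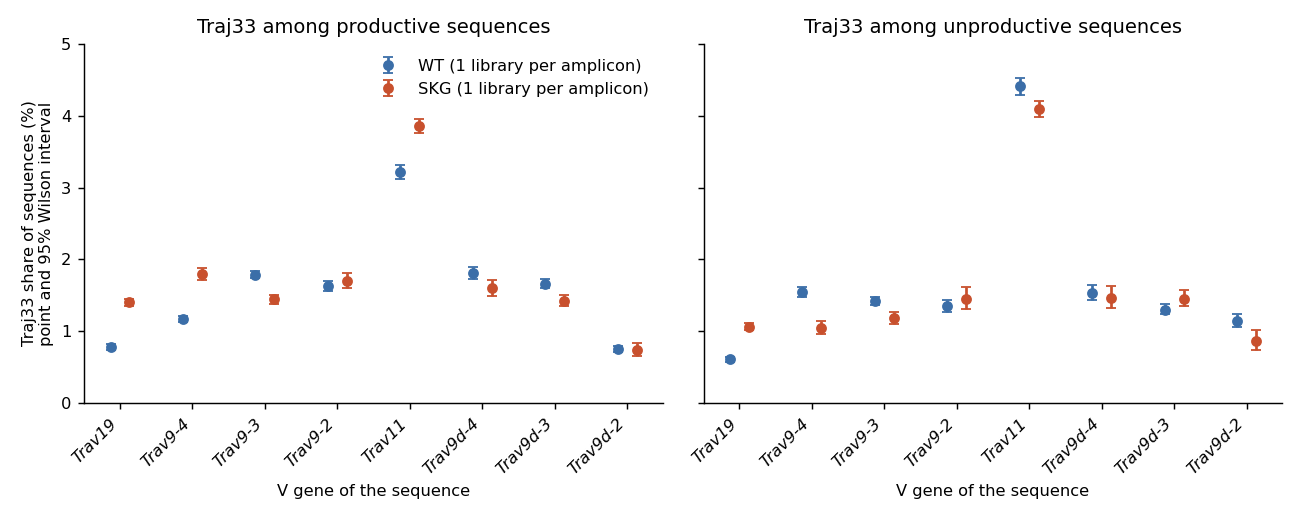
*Traj33* share (%) of the productive (left) and unproductive (right) sequences of each V gene, WT in blue and SKG in red, with 1 library per amplicon and genotype. Points are shares and bars are 95% Wilson intervals. *Trav11* sits between 3.22% and 4.41%, above every other V gene in both panels.

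In WT, the *Traj33* share was 1.81% for *Trav9d-4*, 1.79% for *Trav9-3*, 1.66% for *Trav9d-3*, 1.63% for *Trav9-2*, 1.17% for *Trav9-4*, 0.779% for *Trav19* and 0.752% for *Trav9d-2*. Neighbours in this order were compared with two-sided Fisher's exact tests, with Benjamini-Hochberg adjustment over the 14 pairs of both genotypes. *Trav11* differed from the next V gene (odds ratio 1.8, 1.70 to 1.91, Fisher adjusted p = 1.42e-92). *Trav9d-4* and *Trav9-3* (Fisher adjusted p = 0.718), *Trav9d-3* and *Trav9-2* (0.692), and *Trav19* and *Trav9d-2* (0.519) did not pass the threshold of 0.05. The low WT value of *Trav9-4* was separated from *Trav9-2* above it (odds ratio 1.40, Fisher adjusted p = 6.51e-31) and from *Trav19* below it (odds ratio 1.5, Fisher adjusted p = 7.17e-40).

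In SKG, the order after *Trav11* was *Trav9-4* with 1.8%, *Trav9-2* with 1.70%, *Trav9d-4* with 1.60%, *Trav9-3* with 1.44%, *Trav9d-3* with 1.42%, *Trav19* with 1.40% and *Trav9d-2* with 0.740%. *Trav11* again differed from the next gene (odds ratio 2.19, 2.08 to 2.31, Fisher adjusted p = 2.07e-216), and *Trav9d-2* differed from *Trav19* above it (odds ratio 1.91, Fisher adjusted p = 1.47e-26). Of the pairs between them, only *Trav9d-4* and *Trav9-3* passed the threshold (odds ratio 1.11, Fisher adjusted p = 0.0247). *Trav19* and *Trav9d-2*, which had close to the same share in WT, were therefore apart in SKG. *Trav9d-2* stayed low in both genotypes, where *Traj33* was its 36th of 43 segments each time. The lowest WT shares belonged to *Trav19* and *Trav9d-2*. In the reference build these are the nearest to *Traj33* and the farthest from it of the V genes that were placed and listed alone. Distances in these mice were not checked.

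The SKG share of *Traj33* was higher than the WT share in *Trav19*, *Trav9-4* and *Trav11*, lower in *Trav9-3*, *Trav9d-3* and *Trav9d-4*, and did not pass the test in *Trav9-2* and *Trav9d-2*. The test was Fisher's exact test of *Traj33* against all other segments, adjusted over 336 tests of segments and V genes, of which 83.3% passed. At this depth passing the test is the usual outcome, so the size of each ratio and its place among the other segments of the same V gene are given beside it.

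In *Trav19*, *Traj33* rose from 0.779% (1827 of 234415 sequences) to 1.40% (3530 of 252048), a ratio of 1.8 (log2 ratio 0.85, Fisher adjusted p = 2.46e-96). That was the 11th highest of the 42 ratios in *Trav19*, where 50% of segments differed by at least 1.5-fold in either direction. In *Trav9-4* it rose from 1.17% (2548 of 218279) to 1.8% (1971 of 109667), a ratio of 1.54 (log2 ratio 0.62, Fisher adjusted p = 1.21e-45). It was the 6th of 43 ratios there, and 20.9% of segments passed 1.5-fold. With unproductive sequences included, its log2 ratio was 0.27, below 1.5-fold. In *Trav11* it rose by a smaller step, from 4429 of 137708 sequences to 5902 of 152878, a ratio of 1.20 (log2 ratio 0.26, Fisher adjusted p = 1.75e-20). It was the 13th of 36 ratios, and 22.2% of segments passed 1.5-fold. With unproductive sequences included, its log2 ratio was 0.079. The log2 ratios of *Trav19* segments ran from -9.43 to 7.43, so the *Traj33* ratio lay well inside the range of that pair of libraries.

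In *Trav9-3*, *Traj33* fell from 1.79% (4253 of 237698) to 1.44% (2067 of 143070), a log2 ratio of -0.31 (Fisher adjusted p = 1.05e-15). This was the 37th of 43 ratios, and 9.3% of *Trav9-3* segments passed 1.5-fold. In *Trav9d-3* the share fell from 1.66% to 1.42% (log2 ratio -0.22, Fisher adjusted p = 3.09e-06, 6.98% of segments past 1.5-fold). In *Trav9d-4* it fell from 1.81% to 1.60% (log2 ratio -0.17, Fisher adjusted p = 0.00648, 18.6% past 1.5-fold). None of the 3 reached 1.5-fold. With unproductive sequences included, the log2 ratios were -0.27 in *Trav9-3*, -0.084 in *Trav9d-3* and -0.12 in *Trav9d-4*. In *Trav9-2*, where 32.6% of segments passed 1.5-fold, the shares were 1.63% and 1.70%, with an odds ratio of 1.05 (0.971 to 1.126, Fisher adjusted p = 0.272). In *Trav9d-2*, where 25.6% did, they were 0.752% and 0.740%, with an odds ratio of 0.986 (0.858 to 1.133, Fisher adjusted p = 0.872).

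**Figure D2:**
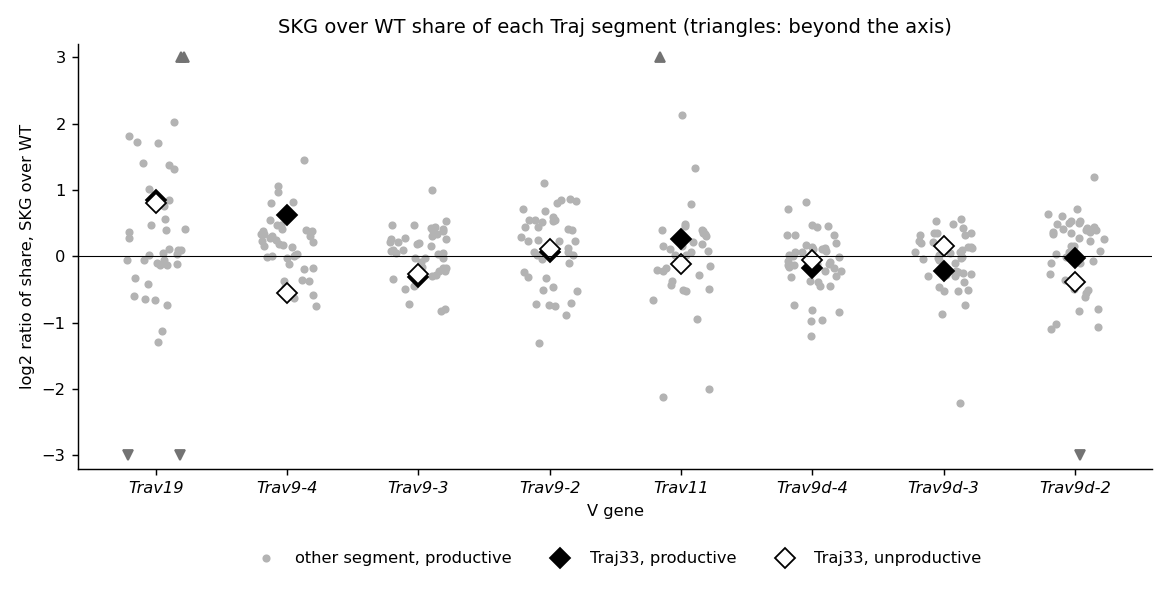
log2 ratio of the SKG over the WT share of each *Traj* segment, by V gene. Grey points are the other segments among productive sequences, filled diamonds are *Traj33* among productive sequences, open diamonds are *Traj33* among unproductive sequences, and the 6 triangles mark segments beyond 3 in size. *Traj33* lies at 0.85 in *Trav19* and 0.62 in *Trav9-4* among productive sequences. In *Trav9-4*, *Trav11* and *Trav9d-3* the 2 diamonds lie on opposite sides of 0.

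The *Trav9* genes shared the same 2 libraries, and *Traj33* moved differently among them. The change in log2 odds was compared between pairs of V genes at every segment measured in both (1130 tests, binomial counts of sequences with a normal approximation). At *Traj33*, 9 of the 15 pairs of *Trav9* genes passed, beside 75.2% over all segments of such pairs, so a difference between *Trav9* genes was no rarer elsewhere in the array. *Trav9-4* stood apart from each of the other *Trav9* genes. The difference in log2 odds was 0.95 from *Trav9-3* (SE 0.06, binomial adjusted p = 1.39e-57), 0.86 from *Trav9d-3*, 0.81 from *Trav9d-4*, 0.65 from *Trav9d-2* and 0.57 from *Trav9-2* (SE 0.07, adjusted p = 1.31e-15). The differences among the 3 genes in which *Traj33* fell did not pass the threshold (binomial adjusted p between 0.082 and 0.597). All 13 pairs of V genes from different amplicons passed, beside 83.1% over all segments, with a highest binomial adjusted p of 0.00773.

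Unproductive sequences hold a join that is out of frame or has a stop codon, and so they record rearrangement that gives no protein. Fisher's exact test of SKG against WT was passed by 78.9% of segments in this class. In *Trav19* the unproductive *Traj33* share rose from 0.610% (1146 sequences) to 1.06% (1476 sequences), a log2 ratio of 0.80 beside 0.85 in productive ones. In *Trav9-3* both classes fell, with 1.42% in WT and 1.18% in SKG among unproductive sequences (log2 ratio -0.26). In *Trav9-4* the unproductive share fell from 1.55% (1976 sequences) to 1.05% (484 sequences), a log2 ratio of -0.56, while the productive share rose.

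The difference between the classes was tested on the log2 odds of SKG over WT, adjusted over 332 tests of segments and V genes, of which 78.9% passed. At *Traj33* it passed in 4 of the 8 V genes. In *Trav9-4* it was 1.20 (SE 0.09, binomial adjusted p = 2.95e-43), the 2nd largest in size of the 43 segments, whose median size was 0.38. In *Trav11* it was 0.39 (SE 0.04, binomial adjusted p = 1.16e-19), the 17th of 36, with an unproductive share of 4.41% in WT and 4.09% in SKG. In *Trav9d-3* it was -0.39 (SE 0.08, binomial adjusted p = 9.30e-06), the 17th of 43, with unproductive shares of 1.302% and 1.46%. In *Trav9d-2* it was 0.38 (SE 0.17, binomial adjusted p = 0.0285), the 26th of 43, with unproductive shares of 1.15% and 0.871%. The difference did not pass in *Trav19* (0.05, SE 0.07), *Trav9-2* (-0.04, SE 0.11), *Trav9-3* (-0.05, SE 0.07) and *Trav9d-4* (-0.11, SE 0.11), where the unproductive shares were 1.35% and 1.45% for *Trav9-2* and 1.53% and 1.47% for *Trav9d-4*. A rearrangement whose sequences fall in both classes would enter both shares, and its part in these values was not tested.

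The same data can be read as the productive share of *Traj33* sequences. SKG exceeded WT in all 8 V genes, and the difference passed Fisher's exact test in 7 of them. Over all segments and V genes 80.5% passed in either direction and 63.9% passed with SKG above WT. The median change over segments was above 0 in every V gene but *Trav11*, where it was -0.27 percentage points. In *Trav9-4* the productive share went from 56.3% (54.9 to 57.8) in WT to 80.3% (78.7 to 81.8) in SKG. This gain of 24.0 percentage points was the 2nd largest of the 43 segments, whose median gain was 8.17 points. In *Trav11* it went from 47.3% (46.3 to 48.3) to 54.2% (53.3 to 55.1), a gain of 6.86 points and the 7th of 37. In *Trav9d-3* the gain was 2.98 points against a median of 7.70, the 33rd of 44, and in *Trav9d-4* it was 5.68 points against 9.81. In *Trav9d-2* the change of 3.57 points did not pass the test (58.4% in WT and 61.98% in SKG, Fisher adjusted p = 0.225).

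**Figure D3:**
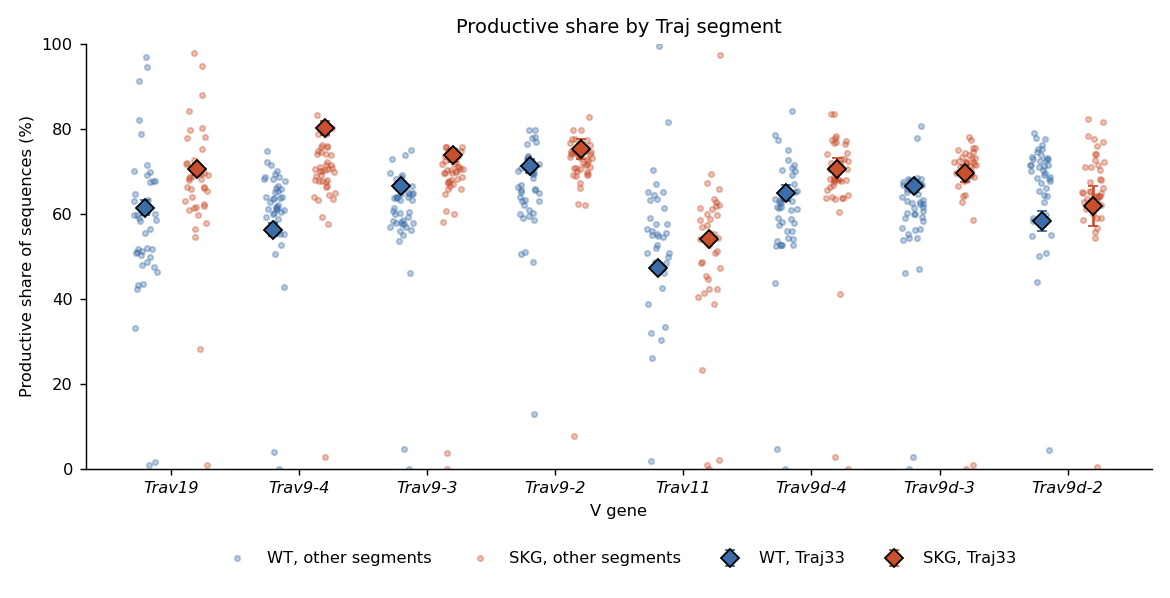
Productive share (%) of the productive and unproductive sequences of each *Traj* segment, by V gene, WT in blue and SKG in red. Diamonds are *Traj33* with 95% Wilson intervals and small points are the other segments with at least 50 sequences. *Traj33* in *Trav9-4* moves from 56.3% in WT to 80.3% in SKG.

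Set against the other segments of its own library, *Traj33* was productive more often in 9 of 16 combinations of V gene and genotype, less often in 4, and without a difference past the threshold in 3. The test was Fisher's exact test adjusted over 683 tests of segments, of which 77.9% passed. In *Trav19*, *Traj33* was productive in 61.5% of WT sequences against 55.5% for the other segments, and in 70.5% of SKG sequences against 64.4%. In *Trav11* it was below the others, with 47.3% against 55.5% in WT (Fisher adjusted p = 1.76e-53) and 54.2% against 55.7% in SKG (Fisher adjusted p = 0.00295). *Trav9-4* changed sides, with a difference from the others of -6.88 points in WT and 10.02 points in SKG (Fisher adjusted p = 1.49e-20 and 2.00e-28). The direct neighbours of *Traj33* in *Trav9-4* gained less, from 65.2% to 71.5% at *Traj32* and from 68.6% to 70.9% at *Traj34*. As at *Traj33*, unproductive *Trav9-4* shares fell at *Traj35* (1.20% to 0.808%) and *Traj30* (1.43% to 1.04%). Productive shares there went from 1.06% to 1.09% and from 1.33% to 1.62%. Both shares rose at *Traj37*, *Traj34*, *Traj32*, *Traj31* and *Traj28*, and both fell at *Traj38*. In *Trav9d-2* the WT difference of *Traj33* from the other segments was -9.85 points.

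Among productive sequences, *Traj33* was used less than both direct neighbours. The files held 0 sequences of *Traj36* and 1 of *Traj29*, so the segments described around it are *Traj38*, *Traj37*, *Traj35*, *Traj34*, *Traj32*, *Traj31*, *Traj30* and *Traj28*. *Traj32* and *Traj34* were each above *Traj33* in all 16 combinations. There were 2.09 to 3.88 *Traj32* sequences for each *Traj33* sequence (median 2.67), and 1.17 to 3.297 *Traj34* sequences (median 1.81). Among unproductive sequences *Traj32* was again above it in all 16, but *Traj34* in 14. The exceptions were both *Trav11* libraries, where *Traj33* made up 4.41% and *Traj34* 3.22% of unproductive sequences in WT, and 4.09% and 3.92% in SKG. Among productive sequences *Traj33* was above *Traj35* in 14 combinations and above *Traj31* in 2. The 2 were the *Trav11* libraries, where *Traj31* made up 0.599% of WT and 1.04% of SKG sequences. *Traj18*, the iNKT segment, made up 9.43% of *Trav11* sequences in WT and 9.95% in SKG.

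**Figure D4:**
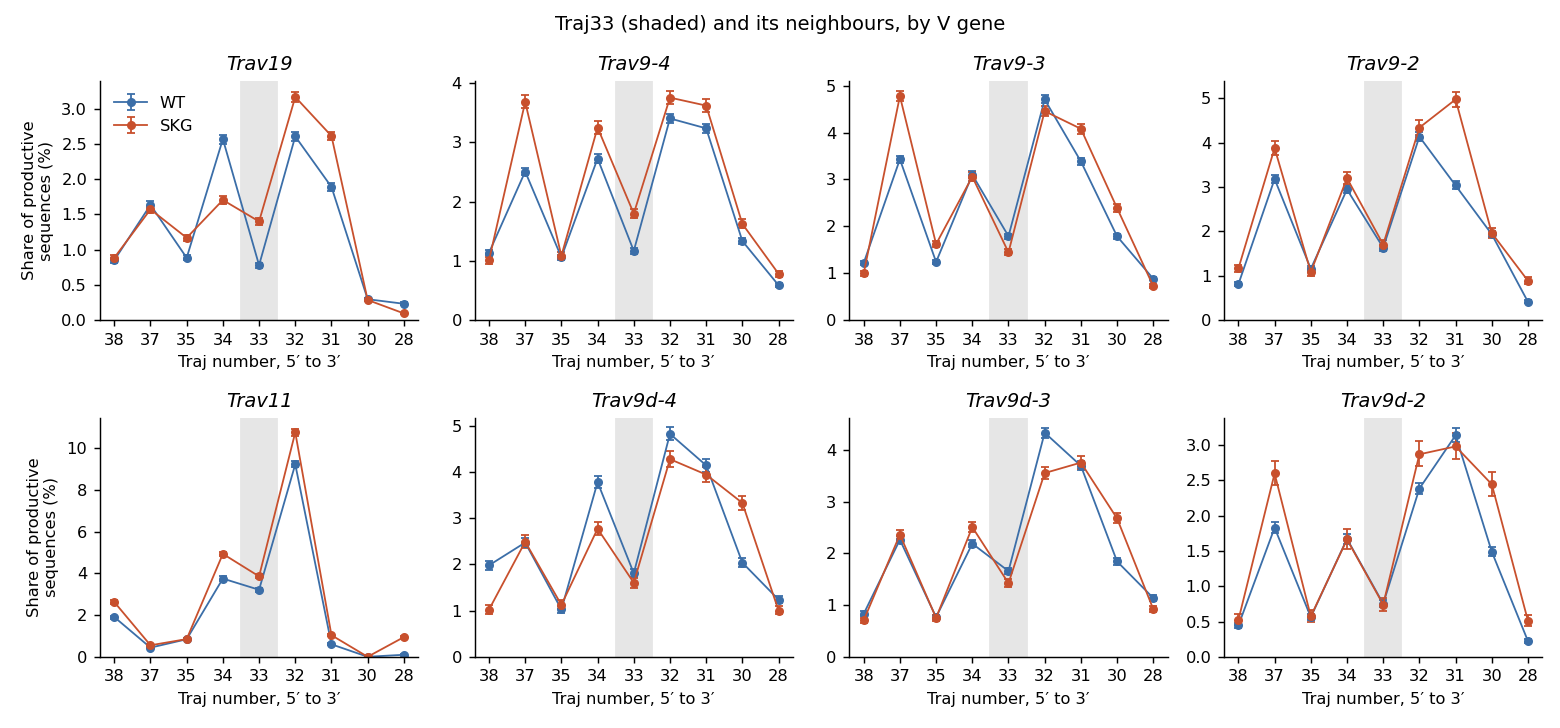
Share (%) of productive sequences that used *Traj33* (shaded) and its neighbours, ordered 5′ to 3′, for each V gene, with WT in blue and SKG in red and 95% Wilson intervals. Panels have their own y axes, each starting at 0. *Traj33* lies below *Traj34* and *Traj32* in every panel.

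The SKG change at *Traj33* was next compared with that of the 2 segments beside it. In *Trav19*, there were 1827 *Traj33* sequences against 12137 of *Traj34* and *Traj32* together in WT, and 3530 against 12281 in SKG. The odds ratio was 1.91 (1.795 to 2.03, Fisher's exact test, adjusted p = 4.52e-96 over 8 V genes). The flanking segments themselves moved in opposite directions there, since *Traj34* fell from 2.57% to 1.70% and *Traj32* rose from 2.61% to 3.17%. In *Trav9-4* the odds ratio was 1.35 (1.26 to 1.44, Fisher adjusted p = 1.83e-18), with *Traj34* at 2.73% and 3.25% and *Traj32* at 3.40% and 3.75%. The log2 ratio was 0.62 at *Traj33*, 0.25 at *Traj34* and 0.14 at *Traj32*. Of the other segments around it, *Traj37* had 0.55, from 2.51% to 3.68%. In unproductive *Trav9-4* sequences the odds ratio was 0.528 (0.473 to 0.588), the opposite direction.

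In *Trav9-3*, *Traj33* fell against its flanks (odds ratio 0.839, 0.792 to 0.888, Fisher adjusted p = 4.88e-09), while *Traj34* was at 3.10% and 3.06% and *Traj32* at 4.71% and 4.46%. In *Trav11*, the flanks rose with it and the odds ratio was 0.993 (0.951 to 1.04, Fisher adjusted p = 0.747). A *Trav11* change at *Traj33* apart from that of its flanks was not detected, and among *Traj31* to *Traj35* its share was 18.2% in WT and 17.99% in SKG. The odds ratios of *Trav9-2* (0.981, 0.904 to 1.06), *Trav9d-2* (0.881, 0.758 to 1.02), *Trav9d-3* (0.924, 0.860 to 0.992) and *Trav9d-4* (1.08, 0.984 to 1.19) did not pass the adjusted threshold.

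Across V genes and genotypes, the segment most like *Traj33* was its 3′ neighbour *Traj32*. The likeness was Pearson's r of the log2 productive share over the 16 combinations, among 43 segments, and is given as a description, since V genes of 1 amplicon share a library and shares within a V gene sum to 100%. It was 0.95 for *Traj32*, 0.86 for *Traj39* and 0.85 for *Traj38*, and then 0.81 for the 5′ neighbour *Traj34*. *Traj18* had 0.56, *Traj35* 0.33 and *Traj31* -0.47, although *Traj31* is the second segment 3′ of *Traj33*. *Trav11* had the lowest *Traj31* shares (0.599% in WT and 1.04% in SKG) and the highest *Traj33* shares (3.22% and 3.86%). No r was computed without *Trav11*, for *Traj31* or any other segment. The sign for *Traj31* may not hold among the other V genes, and the size of each r may differ there. On this log2 scale *Traj32* was on average 1.46 above *Traj33*, *Traj39* 0.50 above and *Traj38* 0.57 below.

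**Figure D5:**
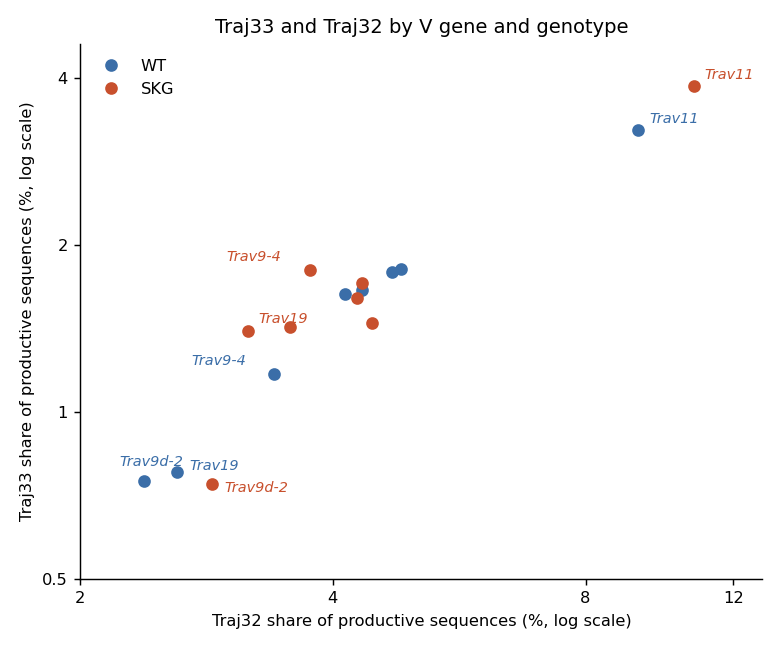
*Traj33* share against *Traj32* share (% of productive sequences, both axes on a log scale) in the 16 combinations of V gene and genotype, WT in blue and SKG in red. *Trav11*, *Trav19*, *Trav9-4* and *Trav9d-2* are labelled. The 2 *Trav11* points lie at the upper right with 9.24% and 10.8% *Traj32*, and the low points are both *Trav9d-2* libraries and WT *Trav19*.

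The plot of *Traj33* against *Traj32* also shows where the pair parted. For every 100 *Traj32* sequences there were 29.9 of *Traj33* in WT *Trav19* and 44.2 in SKG *Trav19*, and 34.3 and 47.9 in *Trav9-4*. The same number fell in *Trav9-3*, from 38.02 in WT to 32.41 in SKG, and in *Trav9d-2*, from 31.54 to 25.8. In *Trav9d-3* it was 38.24 in WT and 40.05 in SKG. In *Trav11* it was 34.8 in WT and 35.8 in SKG, in *Trav9-2* it was 39.5 and 39.3, and in *Trav9d-4* it was 37.5 in both. Differences in this number between WT and SKG were not tested.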

How the data were processed

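Amplicons of TCR α cDNA from sorted thymocytes were sequenced by the authors on a MiSeq with paired reads. They built clonal sequences with MiXCR, cut off the primers with cutadapt 1.13 (the version per the labels), dropped exact duplicates and used IMGT/HighV-QUEST to name the V and J genes. The labels name mm10 and genomic DNA, but the deposited lists hold no coordinates and the protocol describes RNA and cDNA. Each row of the deposited lists is a sequence with its functionality class and its V and J assignments, without read counts, so an abundant rearrangement counts once per distinct sequence and a share is not a share of cells.

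Sequences were counted when they had 1 J gene and a V assignment to *Trav19*, to *Trav11* or *Trav11d*, or to a single *Trav9* gene with at least 1000 productive sequences in both libraries. This kept 60670 *Traj33* sequences (97.7%). The other 1412 listed several *Trav9* genes or an off-target gene. Segments were tested with at least 50 sequences. Ratios had 0.5 added to each count, and 3 counts were taken as the floor of a count of 0. Differences in log odds between V genes and between classes were tested on binomial counts with a normal approximation. Fisher's exact tests were two-sided with Benjamini-Hochberg adjustment and a threshold of 0.05. Segments named are *Traj33*, *Traj38* to *Traj28*, *Traj18* and the 3 most like *Traj33*. *Traj33*, these lists and tests were chosen with earlier results of these data known. Positions and bases are from NCBIM37 with GENCODE annotation. Symbols were matched through the synonyms of the RefSeq table of GRCm38.p6, none of whose coordinates were used. The functions were tested on simulated data. Python 3.11.15, numpy 2.4.6, pandas 2.3.3, scipy 1.17.1 and matplotlib 3.10.9 were used. Alternatives were other functionality classes, V and J filters, flanking segments, denominators, and no added count.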

Additional observations from a re-analysis of the deposited data

Results flagged for a closer look

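The change in *Traj33* between WT and SKG differed between the amplicons. The *Trav9* group here holds sequences listing 1 of the 6 *Trav9* genes with at least 1000 productive sequences in both libraries. The *Traj33* share of productive sequences was 1.47% in WT and 1.52% in SKG over the *Trav9* genes. The log2 odds of SKG over WT were 0.58 higher in *Trav19* than in *Trav11* (SE 0.05, binomial adjusted p = 5.73e-30), 0.81 higher in *Trav19* than in *Trav9* (SE 0.05, adjusted p = 6.91e-67) and 0.23 higher in *Trav11* than in *Trav9* (SE 0.04, adjusted p = 2.28e-10). The *Trav9* value pools 6 genes whose log2 odds ran from -0.31 in *Trav9-3* to 0.63 in *Trav9-4*, and their mix differed between the libraries, with *Trav9d-2* giving 127588 of 970612 sequences in WT and 33917 of 500444 in SKG. Against *Trav9-4* alone the *Trav11* difference had the opposite direction (-0.36, binomial adjusted p = 2.20e-11). These 3 amplicon tests used a normal approximation over sequences. Each drew on the WT and the SKG library of both amplicons, with 1 library for each amplicon and genotype.

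*Traj33* was also found outside the amplified V genes. In the SKG *Trav19* library, 167 of 6346 sequences that list no *Trav19* carried *Traj33* (2.63%, 2.27 to 3.05), against 0 of 4497 in the WT *Trav19* library, and 0 of 224 and 0 of 390 in the WT and SKG *Trav11* libraries. Of the 167, 163 listed TRAV4D-3 alone, 149 of them productive and 14 unproductive. TRAV4D-3 sequences numbered 5096 in SKG, of which 3.2% carried *Traj33*, and 3841 in WT, where 0 carried it. The WT floor of 3 counts was 0.0781%, with a 95% Wilson upper limit of 0.0999%. TRAV4D-3 was listed with 41 *Traj* segments in SKG and 35 in WT, so *Traj33* was not the only segment absent from WT alone. How many separate rearrangements the 163 sequences stem from was not tested.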

How the results depend on the processing

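No paired analysis was possible because each genotype and amplicon has 1 library, and for the same reason no library could be left out. The level of *Trav11* above the next V gene and the side of the productive share in the 16 combinations held under each alternative run for them. Among the log2 ratios of SKG over WT, *Trav19* and *Trav9-3* held under all 7 alternatives. In unproductive sequences *Trav11* (-0.11), *Trav9-4* (-0.56) and *Trav9d-3* (0.16) had the opposite direction, *Trav9d-2* (-0.39) passed the threshold and *Trav9d-4* (-0.061) did not. With every functionality class *Trav9-4* (0.27), *Trav11* (0.079), *Trav9d-3* (-0.084) and *Trav9d-4* (-0.12) kept their calls at smaller ratios, and *Trav9d-2* passed (-0.16). With V genes listed among others *Trav9d-2* changed sign (0.046, Fisher adjusted p = 0.651). As a share of *Traj31* to *Traj35*, *Trav11* (-0.018) and *Trav9d-4* (0.0093) changed sign and lost their calls, and *Trav9-2* (-0.18) became a call in the lower direction, as it did without *Traj52* to *Traj58* (-0.14). For *Traj33* against its flanks (log2 odds ratio), unproductive sequences reversed *Trav9-4* (-0.92), *Trav9d-3* (0.20) and *Trav9d-4* (-0.31) and brought *Trav11* (-0.11) and *Trav9d-2* (-1.05) past the threshold. Every functionality class reversed *Trav9d-3* (0.0031) and *Trav9d-4* (-0.023), left *Trav9-4* short of it (0.014) and brought *Trav11* (-0.084) and *Trav9d-2* (-0.49) past it. With *Traj35* and *Traj31* added to the flanks, *Trav9-2* (-0.21) and *Trav9d-3* (-0.16) passed. The cause was not tested.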
